A study of Homo sapiens with 11 samples.

Results

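The ERBB family of receptor tyrosine kinases (EGFR, ERBB2, ERBB3 and ERBB4) and 6 of its ligands (TGFA, EGF, HBEGF, AREG, EREG and BTC) were examined in RT4 cells. Members were all probes to which the array's gene table gave 1 of these 10 symbols and no other. Of the 10 genes, 9 had a probe, out of 14941 genes on the array with a single symbol. EGFR, ERBB2, TGFA, EGF, HBEGF, EREG and BTC had 1 probe each, ERBB3 had 2 and ERBB4 had 3, which gave 12 probes. AREG was paired with no probe and was not analysed here. RT4 is an established line from a transitional cell papilloma of the bladder. The cells had been grown on plastic, with 2 arrays, or on Matrigel, a gel that served as cancer-remodeled extracellular matrix (crECM), in McCoys medium with fetal calf serum. The 9 crECM arrays came from cells that had been on the gel for 0.5, 1, 2, 3, 4, 6, 7, 8 and 9 days after growth on plastic, with 1 array for each time point. All cells were of this 1 line, and the labels did not say whether arrays came from separate cultures, so p-values measure only the spread between these arrays.

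Ligands of the ERBB family are made as membrane-bound precursors that are cut by proteases of the ADAM family and then bind receptors on the same or on neighboring cells. Ligand binding pairs the receptors, and the pair adds phosphates to its own tails, where adaptor proteins start the RAS-ERK and PI3K cascades. ERBB2 has no known ligand of its own and acts as a preferred partner of the other receptors, ERBB3 has little kinase activity and recruits PI3K, and ERBB4 also binds neuregulins. In the urothelium, the lining of the bladder, EGFR ligands take part in regrowth after injury, and ERBB2 and ERBB3 are among the genes altered in bladder cancer.

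The deposited log10 values had been scaled by the authors to the spread of the noise around zero on each array, and the arrays had then been aligned by robust linear regression. A deposited value is given below as the antilog of this number, and a value of 3 was the study's limit of expression. The plastic arrays stood apart from the crECM arrays in the raw intensities. Their raw medians of 162 and 140.45 compared with 224 to 482 on crECM, and the slope of deposited on raw log10 values was 0.697 and 0.684, against 0.902 to 1.29. On the plastic arrays a deposited value of 3 equaled 0.244 and 0.189 SDs of the raw noise, and on the crECM arrays it equaled 0.797 to 2.76. Probes above 3 made up between 83.9% and 86.6% of each array in the deposited values, whereas in raw noise SDs the plastic arrays had 59.0% and 52.8% and the crECM arrays 76.3% to 85.6%. Substrate and raw intensity scale thus differ between the same 2 groups, and their parts in a change cannot be told apart. The labels do not say whether the arrays of the 2 groups were handled differently. Results are given below in deposited values and then in raw intensities or as percentiles, that is, the share of all probes of the same array with lower raw intensity. Of 18 urothelial and epithelial marker genes on the array, 17 had a geometric mean deposited value above 3 on plastic and 14 on crECM, where UPK1B, UPK3A, KRT20 and KRT13 were below 3. Markers of other lineages were above 3 as well, with 9 and 10 of 12 fibroblast genes, 8 and 10 of 11 leukocyte genes and 5 and 6 of 8 endothelial genes on plastic and on crECM, respectively. By the mean in raw noise SDs, 7 and 11 fibroblast, 6 and 11 leukocyte and 4 and 8 endothelial genes were above 3 on plastic and on crECM, respectively. For the urothelial and epithelial genes these counts were 13 and 14. All cells were RT4, so a value above 3 on either scale does not by itself show that a gene was expressed. A bulk array cannot tell fewer expressing cells from less RNA per cell.

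Between plastic and crECM, 2 of the 12 ERBB probes were higher on crECM, 2 were lower and 8 did not pass the test (limma, adjusted p under 0.05 over 21480 probes). Over all probes tested, 22.8% were called higher and 22.4% lower, and the ERBB probes were not called more often than that. The 2 groups of arrays did not overlap for 4 of the 12 ERBB probes and for 45.2% of all probes, and 45.2% were called in either direction. BTC was 6.57-fold higher on crECM with its plastic arrays held at 3. ERBB2 was below 3 on every crECM array. The ERBB4 probes moved in opposite directions, and EGFR, ERBB3, TGFA, EGF, HBEGF and EREG did not pass.

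**Figure D1:**
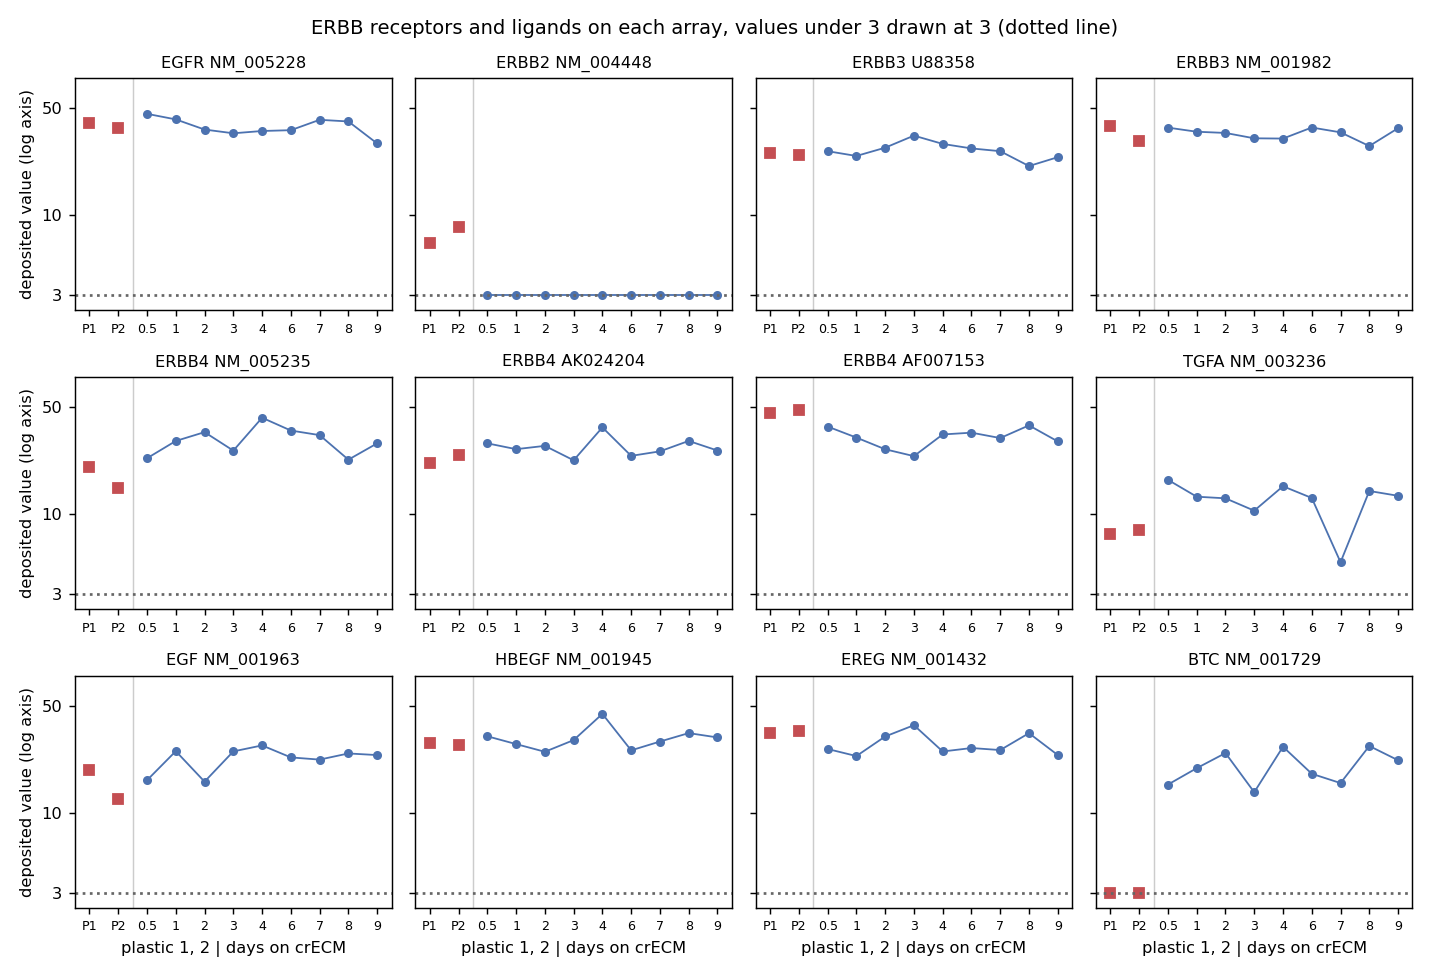
Deposited values (log axis) of the 12 ERBB probes on each of the 11 arrays, with plastic arrays as squares, crECM arrays as circles joined in order of days, and values under 3 drawn at 3 (dotted line). BTC lies at the limit on both plastic arrays and between 13.6 and 27.2 on crECM, ERBB2 lies at the limit on all 9 crECM arrays, and 10 probes are above 3 on all 11 arrays.

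EGFR, the receptor of EGF and TGFA, was above 3 on all arrays. Its deposited values were 40.0 and 37.0 on plastic, against 29.4 to 45.8 on crECM, with a median of 36.2. The groups overlapped, and the log2 change was -0.03 ± 0.14 (SE, n = 2 plastic and 9 crECM arrays), with a 95% interval of -0.34 to 0.28 and an adjusted p of 0.87 (limma). In raw percentiles EGFR was at 84.8 and 79.7 on plastic, with crECM arrays at 69.7 to 91.9.

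ERBB3 was likewise above 3 on all arrays by both of its probes. The probe for U88358 had deposited values of 25.6 and 24.8 on plastic, against 20.9 to 33.0 on crECM, with a median of 26.1. The probe for NM_001982 had values of 37.9 and 30.4 on plastic, with crECM arrays at 28.2 to 37.3 (median 34.7). The crECM arrays lay around or between the plastic arrays for both, with log2 changes of 0.06 (95% interval -0.25 to 0.37) and 0.00 (95% interval -0.25 to 0.25). The second probe had the smallest relative SD over crECM of the 11 ERBB probes that were not at the limit there, 9.01%, against a median of 16.3% over all probes tested.

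The result for ERBB2 depended on the scale. Its deposited values were 6.55 and 8.34 on plastic, and on crECM none of the 9 arrays was above 3, with a highest value of 1.67 on day 4. With values under 3 set to 3, ERBB2 was 2.46-fold lower on crECM (log2 change -1.30, adjusted p = 5.8e-08 by limma). All 9 crECM values are at the limit and have no spread, so the standard error of 0.07 is small by construction. ERBB2 passed the filter on low values only through the plastic arrays. The raw intensity of the same probe was 32.8 and 37.3 on plastic, against 25.6 to 109 on crECM, with a median of 36.1, so that raw intensities of the groups overlapped. In SDs of the raw noise above the zero point, ERBB2 was at 0.75 and 0.84 on plastic, with crECM arrays at -0.67 to 1.29, and no array reached 3. As a percentile of its array it was at 22.2 and 26.7 on plastic, against 2.55 to 12.6 on crECM, a change of -18.1 points (SE 2.35, limma, adjusted p = 8.6e-05). The rank of ERBB2 within the array was thus lower on all 9 crECM arrays, while its signal was within 1.29 SDs of the zero point throughout. Signals near the zero point did not rank alike in the groups. On day 4 a signal of 1.29 SDs ranked at 12.6, whereas the smaller 0.75 and 0.84 SDs on plastic ranked at 22.2 and 26.7. The lower rank therefore does not by itself show less ERBB2 signal. Its mean deposited log10 value of 0.87 on plastic did not reach the value of 1 that the study required of genes switched off by crECM.

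ERBB4, the receptor shared by neuregulins and by BTC, had 3 probes that gave different answers. The probe for NM_005235 had deposited values of 20.2 and 14.9 on plastic, with crECM arrays at 22.6 to 42.4 (median 29.9). All 9 crECM arrays were above both plastic arrays, with a 1.73-fold increase (log2 change 0.79 ± 0.22 SE, limma, adjusted p = 0.012). The probe for AF007153 had values of 45.5 and 47.6 on plastic, against 23.8 to 37.8 on crECM, with a median of 31.5. Here all 9 crECM arrays were below both plastic arrays, with a 1.49-fold decrease (log2 change -0.57 ± 0.15 SE, limma, adjusted p = 0.010). The log2 change turned to 0.30 in values rebuilt from the raw intensities without the regression step, against a median of 1.09 over all probes. The probe for AK024204 had values of 21.4 and 24.2 on plastic, with crECM arrays at 22.4 to 36.7. These groups overlapped, and the log2 change of 0.26 had a 95% interval of -0.08 to 0.60 (limma, adjusted p = 0.19). Neither of the calls was kept in percentiles, where the changes were 26.8 points (limma, adjusted p = 0.059) and -18.9 points (adjusted p = 0.064). After quantile normalization the NM_005235 probe had a log2 change of 0.52 and did not pass, and the AF007153 probe had -0.44 and passed. In values rebuilt with a regression step both calls were kept, with log2 changes of 1.33 and -0.60 (limma, adjusted p = 0.00032 and 0.0027). On that scale the AK024204 probe passed too, with 0.65 (adjusted p = 0.0026). Without plastic replicate 2 neither probe passed (log2 changes 0.57 and -0.54), and without plastic replicate 1 the AF007153 probe did not pass (-0.61). Which transcripts of ERBB4 the probes match was not analysed here.

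The disagreement of the ERBB4 probes was compared within each array, where a multiplicative factor common to the array cancels. A difference in slope between arrays does not cancel. The log2 value of the NM_005235 probe minus that of the AF007153 probe was -1.17 and -1.68 on plastic, against -0.74 to 0.37 on crECM, with a median of 0.05. The groups did not overlap. The mean difference was 1.36 higher on crECM. This pair was chosen after the values were seen, for probes called in opposite directions, so that the separation of the groups follows from the choice and was not tested. The groups also did not overlap in percentiles, with a difference 45.7 points higher on crECM, or in rebuilt values, with a difference 1.68 higher. The difference of NM_005235 and AK024204 was 0.53 higher on crECM, but its groups overlapped (-0.09 and -0.70 on plastic, -0.41 to 0.55 on crECM). That of AK024204 and AF007153 was 0.83 higher.

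**Figure D2:**
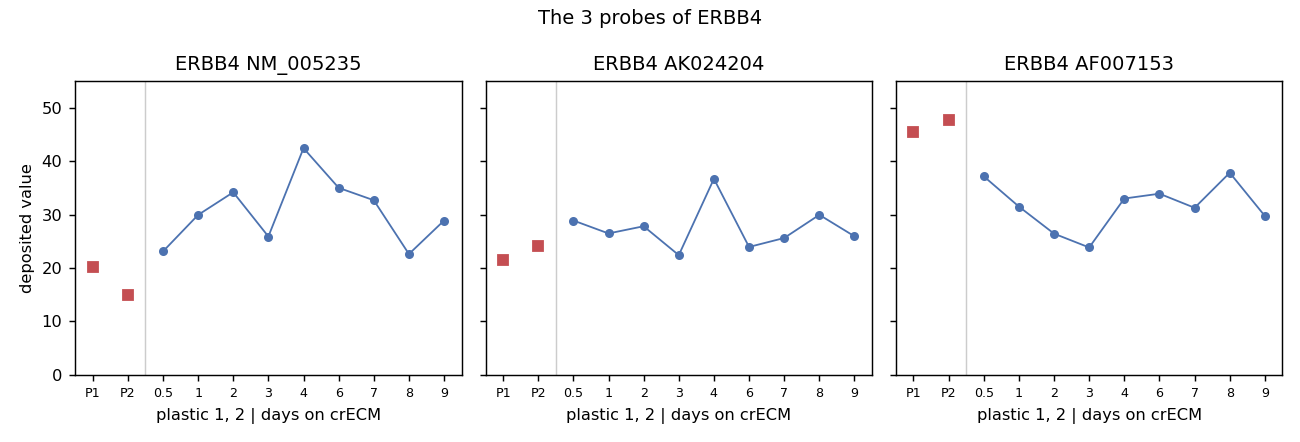
Deposited values (linear axis from 0) of the 3 ERBB4 probes on the plastic arrays (squares) and on crECM by day (circles). The NM_005235 probe is lower on plastic than on every crECM array, the AF007153 probe is higher on plastic than on every crECM array, and the AK024204 probe overlaps.

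The bases just before the start of both genes are shown because ERBB2 and ERBB4 were the receptors with a call. The sequences are those of RefSeq on GRCh38.p14, 250 bases upstream of the start in the direction of transcription, and capitals mark matches to 6 motifs searched on both strands. ERBB2 is at chr17:39687844-39688093 on the plus strand and ERBB4 at chr2:212538803-212539052 on the minus strand.
ERBB2: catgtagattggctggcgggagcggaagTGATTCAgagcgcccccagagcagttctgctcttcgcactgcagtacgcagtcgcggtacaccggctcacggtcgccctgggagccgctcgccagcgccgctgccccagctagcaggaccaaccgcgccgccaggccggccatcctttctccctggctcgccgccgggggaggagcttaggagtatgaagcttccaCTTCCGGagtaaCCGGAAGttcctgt
ERBB4: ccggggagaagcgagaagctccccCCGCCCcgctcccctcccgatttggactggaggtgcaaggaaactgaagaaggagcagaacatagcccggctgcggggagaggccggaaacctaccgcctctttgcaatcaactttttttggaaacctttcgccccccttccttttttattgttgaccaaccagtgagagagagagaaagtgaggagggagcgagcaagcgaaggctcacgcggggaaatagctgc
The motifs were AP-1 (TGANTCA, in 6.57% of 35116 promoters of this length), AP-2 (GCCNNNGGC, 19.8%), Sp1 (GGGCGG, 42.6%), ETS (CCGGAAG, 8.52%), NF-κB (5.21%) and the TATA box (TATAAA, 10.7%). The ERBB2 sequence held an AP-1 match whose first base was 222 bases before the start and a pair of ETS matches 26 and 14 bases before it. The ERBB4 sequence held 1 Sp1 match, 226 bases before the start. No match overlapped another in either sequence. A match describes the letters only, and binding was not measured in these arrays.

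Among the ligands, BTC (betacellulin), which binds EGFR and ERBB4, had the largest change of the 12 ERBB probes in deposited values. It was at the limit on both plastic arrays, with raw intensities of -19.2 and -31.8, below the zero point. On crECM its deposited values lay between 13.6 on day 3 and 27.2 on day 8, with a median of 19.5, and its raw intensities lay between 162 and 482. All 9 crECM arrays were above both plastic arrays, and with both plastic arrays held at 3 BTC was 6.57-fold higher on crECM (log2 change 2.72 ± 0.28 SE, limma, adjusted p = 1.3e-05). The size depended on that limit and on the scale, with a log2 change of 1.98 at a limit of 5, 1.61 in values rebuilt from the raw intensities without the regression step and 1.48 after quantile normalization. BTC passed the filter on low values only through the crECM arrays. In percentiles it was at 5.14 and 5.00 on plastic, with crECM arrays at 25.5 to 62.1, a change of 38.2 points (SE 8.89, adjusted p = 0.0048). The call and its direction held in all 21 alternatives in which it was tested, with log2 changes between 1.48 and 4.30. Many of these reuse the same values with plastic held at the limit and without spread, so they are not independent tests. BTC also met the cutoffs on mean values that the study set for off-on genes, with mean log10 values of -2.45 (plastic) and 1.29 (crECM). The study applied these cutoffs to its hypervariable genes, and whether BTC was among those was not tested here. Its values varied among the crECM arrays with a relative SD of 25.3%.

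**Figure D3:**
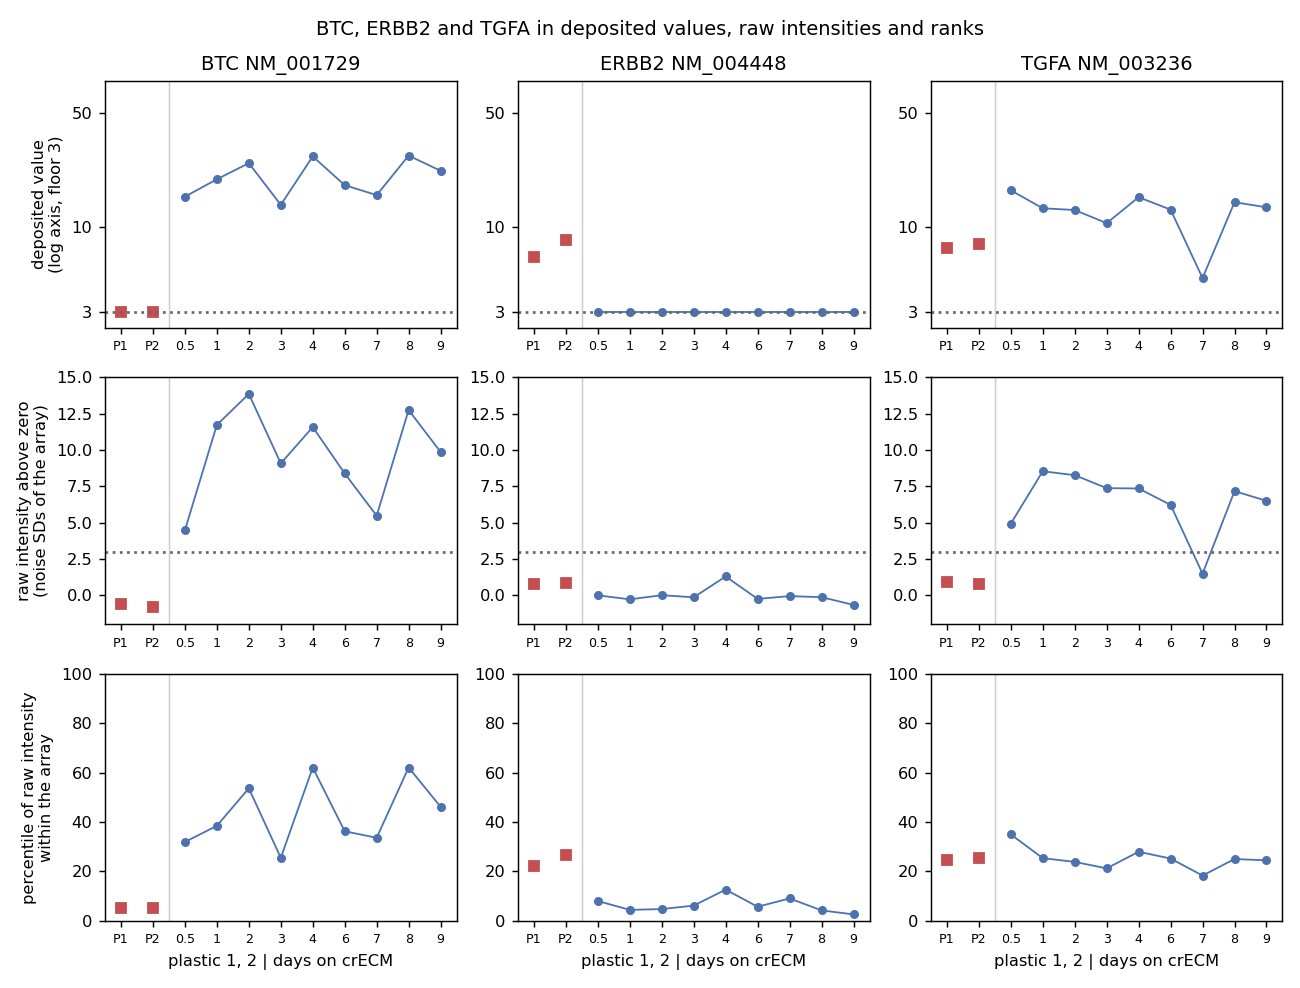
BTC, ERBB2 and TGFA on the 11 arrays as deposited values (top, log axis, values under 3 drawn at 3), as raw intensity above the zero point in noise SDs of the array (middle, dotted line at 3) and as percentiles of raw intensity (bottom), with plastic as squares and crECM as circles by day. BTC is higher on every crECM array on all 3 scales, ERBB2 stays under 3 noise SDs on all 11 arrays, and TGFA is higher on crECM in noise SDs but not in percentiles.

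BTC lies with EREG and AREG in a cluster of ligand genes on chromosome 4, where the starts of EREG and AREG are 80.0 kb apart and those of AREG and BTC 349.4 kb apart. EREG (epiregulin), another ligand of EGFR and ERBB4, was not called. Its deposited values were 33.3 and 33.9 on plastic, against 23.4 to 37.2 on crECM, with a median of 26.0. The crECM array of day 3 was above the plastic arrays and the other 8 were below, with a log2 change of -0.28 (95% interval -0.64 to 0.08, limma, adjusted p = 0.19). In values rebuilt without the regression step the sign turned, with 0.81, against a median of 1.09 over all probes. The upstream sequences of both genes are shown because these neighbors differed in their values, BTC at chr4:74794524-74794773 on the minus strand and EREG at chr4:74364895-74365144 on the plus strand (GRCh38.p14, RefSeq, capitals as above).
BTC: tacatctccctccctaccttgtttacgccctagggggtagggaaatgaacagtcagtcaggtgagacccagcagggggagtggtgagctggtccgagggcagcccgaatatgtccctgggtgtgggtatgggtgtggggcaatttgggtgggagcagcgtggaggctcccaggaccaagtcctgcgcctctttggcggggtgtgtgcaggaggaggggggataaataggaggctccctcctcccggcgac
EREG: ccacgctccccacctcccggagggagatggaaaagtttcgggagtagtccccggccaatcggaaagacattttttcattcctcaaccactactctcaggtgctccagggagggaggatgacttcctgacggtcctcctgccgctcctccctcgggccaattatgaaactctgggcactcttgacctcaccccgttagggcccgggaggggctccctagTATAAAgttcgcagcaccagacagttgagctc
The BTC sequence held none of the 6 motifs. The EREG sequence held a TATA box match, 32 bases before the start. The share of G and C was 62.0% in BTC and 58.0% in EREG, and the median over all promoters was 58.0%.

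TGFA, which binds EGFR, had deposited values of 7.39 and 7.83 on plastic. On crECM they lay between 4.84 and 16.7 with a median of 13.0. The day 7 array was below both plastic arrays and the other 8 were above them. The log2 change of 0.65 had a 95% interval of -0.16 to 1.47 and did not pass (limma, adjusted p = 0.18), and without the day 7 array it was 0.81 and passed (adjusted p = 0.0059). The raw intensity was 38.3 and 34.2 on plastic, with crECM arrays at 68.9 to 328, where every array was higher than on plastic. In raw noise SDs TGFA was at 0.89 and 0.77 on plastic, under 3, and above 3 on 8 of the 9 crECM arrays. As a percentile it was at 24.7 and 25.3 on plastic, against 18.3 to 35.0 on crECM, with a change of 0.18 points (adjusted p = 0.97).

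EGF, the ligand for which the receptor is named, had deposited values of 19.0 and 12.3 on plastic, with crECM arrays at 15.9 to 27.5 (median 23.8). Of the 9 crECM arrays, 7 were above both plastic arrays and the others lay between them. The log2 change of 0.54 had an unadjusted 95% interval of 0.04 to 1.05 and did not pass after adjustment (limma, adjusted p = 0.075). It passed without plastic replicate 1, where the log2 change was 0.86, and without the 12 h array (0.60) or the day 2 array (0.60). Without plastic replicate 2 the log2 change was 0.23 and did not pass. After quantile normalization it was 0.20 and did not pass, and in percentiles the adjusted p was 0.36 (limma). In rebuilt values the log2 change was 1.19 with the regression step and passed (limma, adjusted p = 0.0019). Without that step it was 1.67 (limma, adjusted p = 0.00044), against a median of 1.09 over all probes.

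HBEGF, a ligand of EGFR and ERBB4 that also binds heparan sulfate, had deposited values of 28.6 and 27.7 on plastic. On crECM they lay between 25.0 and 44.1, with a median of 29.8 and the highest value on day 4. The groups overlapped, with a log2 change of 0.11 (95% interval -0.27 to 0.48, limma, adjusted p = 0.63).

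**Figure D4:**
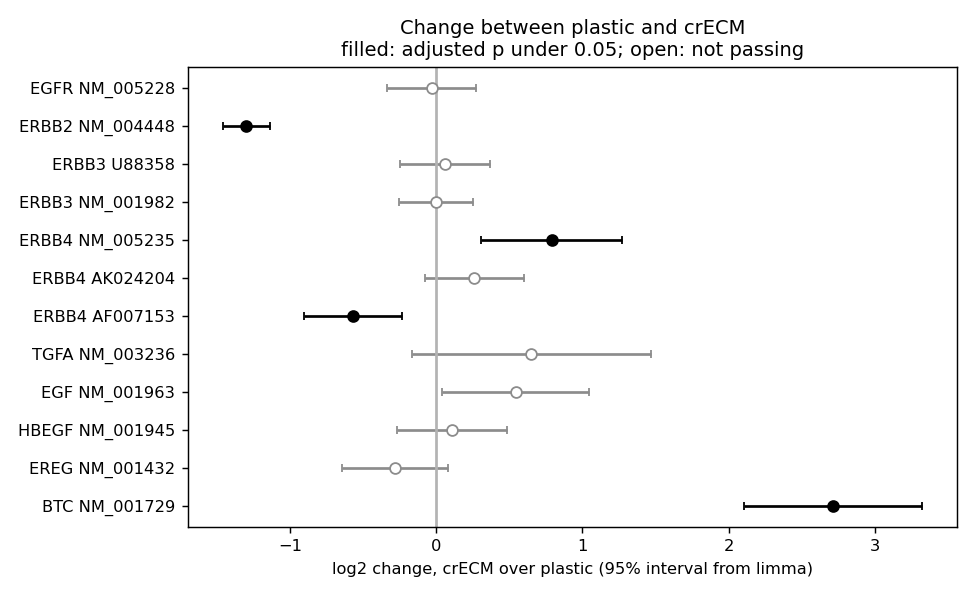
Log2 change of the 12 ERBB probes, crECM over plastic, with limma 95% intervals that are not adjusted for the number of probes. Filled points have an adjusted p under 0.05 (BTC 2.72 and ERBB4 NM_005235 0.79 above 0, ERBB2 -1.30 and ERBB4 AF007153 -0.57 below 0), and the ends of BTC and ERBB2 rest on groups held at the limit of 3.

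The scale of the arrays moved all probes together. In values rebuilt as raw noise SDs without the regression step, the median log2 change over all probes was 1.09, against 0.06 in the deposited values and 0.03 after quantile normalization. Relative to that median of 1.09, the NM_005235 probe of ERBB4 was 0.89 higher and the AF007153 probe 0.79 lower. On the same basis EGF was 0.58, BTC 0.52 and the AK024204 probe of ERBB4 0.51 higher, and EGFR, both ERBB3 probes, TGFA, HBEGF and EREG lay between 0.28 below and 0.25 above the median. ERBB2 could not be tested on that scale, since no array was above 3.

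Within crECM, the question was whether expression was still changing after the first 12 h. The 12 h array was compared with the mean of the 8 later arrays. None of the 12 ERBB probes passed (limma), nor was any unadjusted p under 0.05, whereas 6.23% of all probes were called, and for 4133 the unadjusted p was under 0.05. The lone 12 h array was assumed to vary like the others. EGF was at 16.3 at 12 h, with 7 of the 8 later arrays higher and a log2 difference of -0.51 ± 0.25 (SE, adjusted p = 0.32). EGFR and TGFA were at their highest at 12 h, at 45.8 and 16.7, with log2 differences of 0.32 ± 0.18 and 0.54 ± 0.53 (adjusted p = 0.40 and 0.69). BTC was at 15.3 at 12 h, within the range of the later days. In values rebuilt without the regression step, the 12 h array differed from the later ones by -1.23 for EGF and -1.05 for the NM_005235 probe of ERBB4 on the log2 scale, but this array had the lowest raw median on crECM, at 224.

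A slope on the log2 of the day was called for 0 of the 12 ERBB probes, again with no unadjusted p under 0.05, and for 0.00466% of all probes, which is 1 probe (BCCIP), while 1819 had an unadjusted p under 0.05. The slopes of the ERBB probes lay between -0.14 for TGFA and 0.10 for EGF per doubling of the day. The highest crECM array was day 4 for 4 of the 11 probes that were not at the limit, namely the NM_005235 and AK024204 probes of ERBB4, EGF and HBEGF, and day 4 was the lowest for none. The share of all probes that were highest on day 4 is not given here, so the count does not set the ERBB probes apart. EGFR and TGFA were highest at 12 h, EREG and the U88358 probe of ERBB3 on day 3, and BTC and the AF007153 probe of ERBB4 on day 8. The single array of each day cannot tell a change on that day from the spread between arrays.

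Other genes of the pathway were counted in 6 lists. Of 101 genes tested, 24 were higher on crECM, 17 were lower and 60 did not pass, so that 40.6% were called, against 44.3% of the 14517 named genes tested. The median log2 change over the lists was -0.03 and that over all named genes was 0.09. In values rebuilt without the regression step 69 genes of the lists were higher and 1, EGR3, was lower. The median log2 change over all probes was 1.09 on that scale, so the directions below are those of the deposited values. Genes named below had the largest change in each direction of their list among those called with groups that did not overlap.

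Of the neuregulins and epigen, which are further ligands, 3 were tested. NRG1, a ligand of ERBB3 and ERBB4, had deposited values of 32.5 and 27.6 on plastic, against 10.7 to 20.9 on crECM, and was 1.74-fold lower (adjusted p = 0.018), a call that was lost without either plastic replicate (adjusted p = 0.16 and 0.074). In rebuilt values its log2 change was -0.51 with regression and did not pass (adjusted p = 0.11), and 0.44 without. NRG4, a ligand of ERBB4, had values of 6.33 and 8.92 on plastic and was under 3 on all crECM arrays, a log2 change of -1.32 with crECM held at 3 and without spread. It passed the filter only through plastic, where it was at 0.71 and 0.93 raw noise SDs, and it could not be tested in rebuilt values. NRG2 had a log2 change of -0.35 and did not pass (adjusted p = 0.084).

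Among the proteases and cofactors of ligand shedding, 4 of 10 genes were higher, 1 was lower and 5 did not pass. The others called were ADAM10 and ADAM19, which were higher, and ADAM17, whose groups overlapped and which was above 3 on only 1 plastic and 1 crECM array, and these were picked out after their values were seen. ADAM15 was 2.03-fold higher, with deposited values of 13.2 and 9.47 on plastic, with crECM arrays at 18.3 to 27.4 (adjusted p = 0.0013). RHBDF2, a rhomboid-like protein that helps ADAM17 mature, was at 12.1 and at the limit on plastic, against 14.0 to 32.3 on crECM (log2 change 1.69, adjusted p = 0.0074), and without plastic replicate 2 its log2 change was 0.68 and did not pass. Neither gene passed in percentiles, with adjusted p values of 0.075 for ADAM15 and 0.14 for RHBDF2.

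Of the adaptors and other proteins that bind the activated receptors, 9 of 27 were higher, 2 were lower and 16 did not pass. GRB2, which links receptors to RAS, had deposited values of 10.4 and 11.6 on plastic, with crECM arrays at 20.5 to 68.7, and was 3.38-fold higher (adjusted p = 0.002). SHC3, an adaptor of the SHC family, was at the limit on both plastic arrays and between 7.09 and 15.5 on crECM, and passed the filter only through crECM. With plastic held at 3 it was 3.80-fold higher (adjusted p = 0.00044), and its log2 change of 1.93 was 0.77 after quantile normalization. GAB1, a docking protein for PI3K, was at 22.5 and 29.2 on plastic, against 1.74 to 10.9 on crECM (log2 change -2.11, adjusted p = 0.0031). NCK1, an adaptor to the actin cytoskeleton, was at 5.24 and 8.62 on plastic and under 3 on all crECM arrays, a log2 change of -1.16 with crECM held at 3 and without spread. It passed the filter only through plastic, where it was at 0.54 and 0.89 raw noise SDs, against up to 0.94 on crECM, and it could not be tested in rebuilt values. GAB1 did not pass without plastic replicate 2 (log2 change -1.92) or in rebuilt values without regression (-0.26). In rebuilt values with regression it passed, with a log2 change of -1.35 (limma, adjusted p = 0.00059).

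Genes that attenuate or degrade the receptors were called in both directions, with 5 of 26 higher, 7 lower and 14 not passing. HGS, which sorts receptors to the lysosome, was 2.35-fold higher, at 19.7 and 11.7 on plastic, with crECM arrays at 32.4 to 40.7 (adjusted p = 7.6e-05). STAM, which acts with it, was 2.83-fold lower, at 47.9 and 46.2 on plastic, against 10.3 to 29.1 on crECM (limma, adjusted p = 0.0015). In rebuilt values the log2 change of STAM was -0.54 without regression and did not pass. With regression it was -1.47 and passed (limma, adjusted p = 0.00048). PTPN6, a phosphatase, was 2.50-fold higher (adjusted p = 8.5e-06). CBLC, a ubiquitin ligase of activated receptors, was at 5.90 and 7.48 on plastic and under 3 on crECM, a log2 change of -1.15 with crECM held at 3 and without spread. It too passed the filter only through plastic, where it was at 0.64 and 0.72 raw noise SDs, against up to 0.87 on crECM, and it could not be tested in rebuilt values.

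In the RAS-ERK cascade 2 of 10 genes were higher, 1 was lower and 7 did not pass. Both kinases that activate ERK were higher, MAP2K2 by 1.97-fold (18.6 and 19.7 on plastic, between 29.8 and 47.2 on crECM, adjusted p = 0.00077) and MAP2K1 by 1.70-fold (17.8 and 22.3 on plastic, between 28.5 and 39.2 on crECM, adjusted p = 0.00052). RPS6KA3, a kinase downstream of ERK, was 1.26-fold lower (limma, adjusted p = 0.032). It did not pass without plastic replicate 1 (log2 change -0.38) or without plastic replicate 2 (-0.28). In rebuilt values the log2 change was 0.29 without regression. With regression it was -0.57 and passed (limma, adjusted p = 0.00083).

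Of the immediate-early genes and other targets of ERK, which are transcribed soon after the cascade is active, 4 of 25 were higher, 4 were lower and 17 did not pass. Given after their values were seen, the genes called beside those described next were PTGS2 and SPHK1, which were higher, and EGR1 and ETV5, which were lower. MYC was 2.45-fold higher, at 14.6 and 9.55 on plastic, with crECM arrays at 19.2 to 37.0 (adjusted p = 0.002), and without plastic replicate 2 its log2 change fell from 1.29 to 0.99 and did not pass (adjusted p = 0.066). DUSP4, a phosphatase of ERK, was at the limit on plastic, against 6.20 to 19.0 on crECM, and passed the filter only through crECM. With plastic held at 3 it was 4.21-fold higher (adjusted p = 0.00071), and its log2 change of 2.07 was 0.92 after quantile normalization. EGR3, an immediate-early transcription factor, was at 26.9 and 25.4 on plastic, with crECM arrays at 0.07 to 10.1 (log2 change -2.72, adjusted p = 0.0004). ETV4, an ETS factor, was at 16.0 and 17.0 on plastic, against 0.53 to 12.2 on crECM (log2 change -1.67, adjusted p = 0.031). It did not pass without either plastic replicate (adjusted p = 0.15 and 0.19), and in rebuilt values without regression its log2 change was 0.39. The list thus held genes called in opposite directions in equal number. Calls in both directions were not particular to it, since 3511 of the 14517 named genes tested were higher and 2923 were lower.

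**Figure D5:**
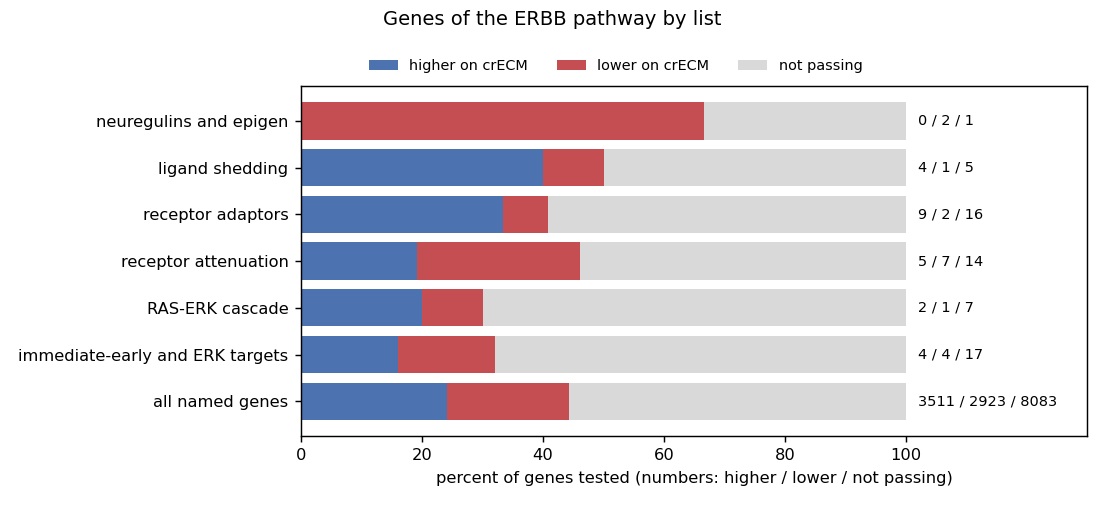
Share of the genes tested in each of the 6 pathway lists, and in all named genes, that were higher on crECM, lower on crECM or did not pass, with the counts beside each bar. The neuregulin bar rests on 3 genes, and the lists vary in the share called between 30.0% and 66.7% around 44.3% for all named genes.

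The genes most like each member with a log2 change of at least 1 were sought by the root mean square difference of log2 values, centered on their own mean, over the 11 arrays among 14508 other genes. For BTC these were CLIP3 (0.17), SH2D3A (0.18) and KIAA0930 (0.20), all of which were under 3 on plastic and above 3 on all 9 crECM arrays. For ERBB2 they were NMI (0.0079), TNFSF10 (0.0081) and ZNF502 (0.0091). All 3 were under 3 on every crECM array, so the likeness to ERBB2 rests on the plastic arrays alone.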

How the data were processed

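RNA of RT4 cells was labeled with Cy3 and hybridized by the authors to spotted long-oligo arrays (2 plastic, 9 crECM). The authors deposited raw intensity values and log10 values, the latter scaled to the noise around zero and aligned by robust linear regression. The scanner and its software are not given in the sources used here. Of 22464 probes, the platform's gene table gave 17043 a single symbol, 172 several and 5249 none, and 16952 were matched by gene ID to GRCh38.p14.

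Antilogs of the deposited log10 values, with values under 3 set to 3, were tested on the log2 scale with limma 3.58.1 (R 4.3.3, lmFit, eBayes with trend) on 21480 probes above 3 on at least 2 arrays, with Benjamini-Hochberg adjustment over all of them. Each array's zero point and slope were found by a robust line of deposited on raw values (MASS), which replaced a density mode after the values were seen. Of 122 member values above zero, 122 lay within 0.05 log10 of the line. Rebuilt values are raw intensities above zero in noise SDs. Pathway lists used 1 probe a gene, the one with the highest mean, and genes were named by the rules stated beside them. The members, lists and rules were chosen with earlier results of these data known, and the motifs after the values were seen. Alternatives were other scales, floors, filters, array weights and leaving out arrays. On simulated data with 50 changed probes a fold, the plastic against crECM fit found 60% of 2-fold, 96% of 3-fold, 94% of 4-fold and 100% of 8-fold changes and made 10 false calls among 21480 probes. In the real comparison 45.2% of probes were called, far more than were changed in the simulation. The simulation therefore does not give the rate of false calls or of changes found in the real comparison. The number of arrays limits the precision. Python 3.11.15 was used for promoters and figures.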

Additional observations from a re-analysis of the deposited data

Results flagged for a closer look

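Of the 11 ERBB probes that were not at the limit on crECM, 2 had a crECM array far from the other 8. This was judged by the gap to the nearest array as a share of the whole range, against Dixon's 95% critical value for 9 values. The shares were taken on the log2 scale, whereas the values given with them are deposited values, on which the share can differ. For TGFA the share was 0.626, with 4.84 on day 7 and the next lowest array at 10.5. For HBEGF it was 0.507, with 44.1 on day 4 and the next highest array at 33.1. Chance alone flags about 1 in 20 such groups, and the crECM arrays are different days. The slope of the day 7 array was 0.902, the lowest on crECM, and its part in the TGFA value was not tested.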

How the results depend on the processing

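Without the regression step, values rebuilt from the raw intensities gave 14104 probes higher and 76 lower on crECM, with 10 ERBB probes higher and 0 lower (EGFR 0.93, AF007153 of ERBB4 0.30 and EREG 0.81 turned sign on the log2 scale, as did NRG1 0.44, RPS6KA3 0.29 and ETV4 0.39), and 69 pathway genes higher with 1 lower (EGR3). With a regression step they gave 7938 higher and 3056 lower, with 6 ERBB probes higher and 1 lower, and 0.029 for EGFR. Quantile normalization gave 3162 higher and 1 ERBB probe higher, with 0.079 for EGFR and -0.047 for TGFA. Percentiles kept 1 ERBB probe higher (BTC) and 1 lower (ERBB2), with 2.63 points for EGFR. Testing only probes above 3 on all 11 arrays, which leaves out ERBB2 and BTC, gave 2965 lower and 1 ERBB probe in each direction. Array weights gave -0.012 for the NM_001982 probe of ERBB3. Leaving out 1 array at a time gave between 2639 and 5452 probes higher and between 3069 and 5245 lower, between 1 and 3 ERBB probes higher and between 1 and 2 lower, between -0.085 and 0.025 for EGFR and between -0.156 and 0.160 for ERBB3 NM_001982, and between 0 and 1 calls for the trend. The calls on the NM_005235 and AF007153 probes of ERBB4 were lost without plastic replicate 2, and that on AF007153 also without replicate 1. Without the 12 h and day 7 arrays together, an alternative added after the data were seen, 4 ERBB probes were higher, and ERBB3 NM_001982 was at -0.021. For 12 h against later days, rebuilt values gave 2220 calls with 2 ERBB probes (EGF and ERBB4 NM_005235), and quantile normalization gave 694. For the trend, rebuilt values gave 79 calls, and quantile normalization and a slope on the day gave 0. Of the comparisons of single ERBB probes with their alternatives, 220 kept the direction and call, 18 turned sign, 16 gained the call and 6 lost it; for named pathway genes these were 359, 3, 0 and 22. No paired analysis was possible because the labels give the crECM arrays no replicate numbers. Causes of these shifts were not tested.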
